A study of Mus musculus with 26 samples.

Results

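The genes described here are those of the lysosome: 33 listed genes for its enzymes, membrane proteins and lipid carriers, and 19 genes of the vacuolar-type proton pump (V-ATPase), taken as every gene whose symbol starts with Atp6v. A gene was kept when it had 10 or more counts summed over all 26 libraries, which left 52 of the 24421 genes in the table. Of 23 genes with such a symbol, 4 fell short of that minimum, namely Atp6v1g3 with 0 counts, Atp6v1e2 with 3, Atp6v0d2 with 5 and Atp6v1b1 with 6. All 52 members passed the filter on low counts and were among the 15238 genes tested. Of the 52, 11 lie on chromosomes 6, 8 and 14 and are described apart, because the median of all genes on those chromosomes differed between groups, and 41 lie elsewhere.

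The lysosome is the acidic compartment in which cells break down proteins, glycans, lipids and worn-out organelles. Its enzymes work at low pH, which the V-ATPase maintains by pumping protons through its membrane sector (V0) with the energy of ATP hydrolysed by its cytosolic sector (V1). Many lysosomal genes share a CACGTG-type promoter element read by the related factors TFEB, TFE3 and MITF. In mouse embryonic stem cells (ESCs) TFE3 is known as a factor whose presence in the nucleus holds back exit from the pluripotent state, and it acts in part through Esrrb.

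RNA was sequenced from mouse ESC clones that all carried a construct and all received doxycycline at 2 µg/ml for 3 days. The Esrrb-knockout groups expressed wild-type ERR beta (KO_ERRb_wt, clones 8-3 and 8-4), ERR beta deficient in binding DNA (KO_ERRb_DBDm3, 9-6 and 9-8), in binding TFIIH (KO_ERRb_DBDm6, 10-24 and 10-26) or in binding coactivators (KO_ERRb_AF2M6, 32-25 and 32-31), wild-type ERR gamma (KO_ERRg_wt, 14-1-10 and 14-11) or a mock construct (KO_mock, 12-1 and 12-3). Cells with intact Esrrb and a mock construct formed the last group (WT_mock, 5-2 and 5-5). ERR beta, the product of Esrrb, and ERR gamma, the product of Esrrg, are orphan nuclear receptors that bind the same DNA element, and TFIIH is a general transcription factor. The clone was the replicate, so n = 2 in each group, and the 2 libraries of a clone were summed (1 library a clone in KO_ERRg_wt). Whatever else sets the clones of a group apart from those of another cannot be told apart from the construct or the Esrrb knockout.

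The 2 libraries of clones 9-6, 10-24, 10-26 and 32-25 differed more than those of the other clones, with a mean chi-square per gene of 11.7 to 18.1, against 2.39 to 7.82 elsewhere. In these 4 clones 29 to 32 of the 41 members outside chromosomes 6, 8 and 14 were higher in library 2, with a median log2 difference of 0.05 to 0.16, against −0.00 to 0.01 over all genes there. Some other clones had shifts of like size. In KO_mock clone 12-1, 28 were higher in library 2 (median 0.06), and in KO_ERRb_wt clone 8-3, 27 (0.05). In WT_mock clone 5-5, 32 were higher in library 1 (−0.07). In the remaining clones 13 to 25 were higher in library 2.

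Clone totals ran from 25103562 to 54105869 counts. Levels are in CPM, the gene's counts set against the TMM-scaled total of its clone. Fold changes are log2 values ± standard error from edgeR's quasi-likelihood test over all 14 clones, and a gene was called higher or lower at a Benjamini-Hochberg adjusted p below 0.05 over all 15238 genes. These p-values measure the spread between clones. Esrrb stood at 429 and 410 CPM in the KO_ERRb_wt clones, 277 and 276 CPM in the KO_mock clones and 603 and 560 CPM in the WT_mock clones. It stood at 482 and 553 CPM in KO_ERRb_DBDm3 and 510 and 551 CPM in KO_ERRb_DBDm6. KO_ERRb_AF2M6 had 463 and 438 CPM and KO_ERRg_wt 477 and 466 CPM. Against KO_ERRb_wt, Esrrb was called higher in KO_ERRb_DBDm3 (0.30 ± 0.0736) and KO_ERRb_DBDm6 (0.34 ± 0.0736) and not in KO_ERRb_AF2M6 or KO_ERRg_wt. Gene counts do not separate the endogenous gene from a construct. Esrrg stood at 229 and 124 CPM in the KO_ERRg_wt clones and at most 0.24 CPM in any other clone. Pluripotency genes were high throughout, with 9 markers summing to between 3330 and 4690 CPM in every clone, and the sum was lowest in the KO_mock clones. Nanog, Tfcp2l1, Dppa5a, Klf4, Fgf4 and Sox2 had their lowest group mean in KO_mock. Pou5f1 and Zfp42 had their highest there, at 934 and 385 CPM, against 744 and 346 CPM in WT_mock. Utf1 had its lowest mean in KO_ERRb_DBDm6. In such bulk RNA, fewer cells of a type and less RNA per cell cannot be told apart. Defining markers of macrophages, cells rich in lysosomes, were near 0: 8 of them summed to at most 6.29 CPM in any clone, and Lyz2 had no count in any group. The 8 fibroblast markers summed to at most 5.51 CPM.

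The members covered most of the expression range. Per kilobase of exon, averaged over the 7 groups, the level of the membrane glycoprotein gene Lamp1 was highest at 206 CPM per kb, followed by the protease cathepsin D gene Ctsd at 171, the V1 subunit genes Atp6v1f at 162 and Atp6v1e1 at 121, and the protease gene Ctsl at 116 CPM per kb. Lamp1 stood at the 97.8th percentile of tested genes on this scale. The lowest levels were those of the arylsulfatase B gene Arsb, at 0.0716 CPM per kb, and of V-ATPase isoform genes known for restricted expression, Atp6v1c2 at 0.24, Atp6v0a4 at 0.44 and Atp6v1g2 at 0.514 CPM per kb. Atp6v0c and Atp6v0c-ps2 share 97% and 99.9% of their exon bases, so the counts of both come from the same reads and stand for 1 signal. In the test for any difference among the 7 groups, 45 of the 52 members were called (86.5%), against 69.6% of all tested genes. The 7 not called were Arsb, Manba, Man2b1, Atp6v0a1, Atp6v0a4, Atp6v0e and Atp6v1g2.

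**Figure D1:**
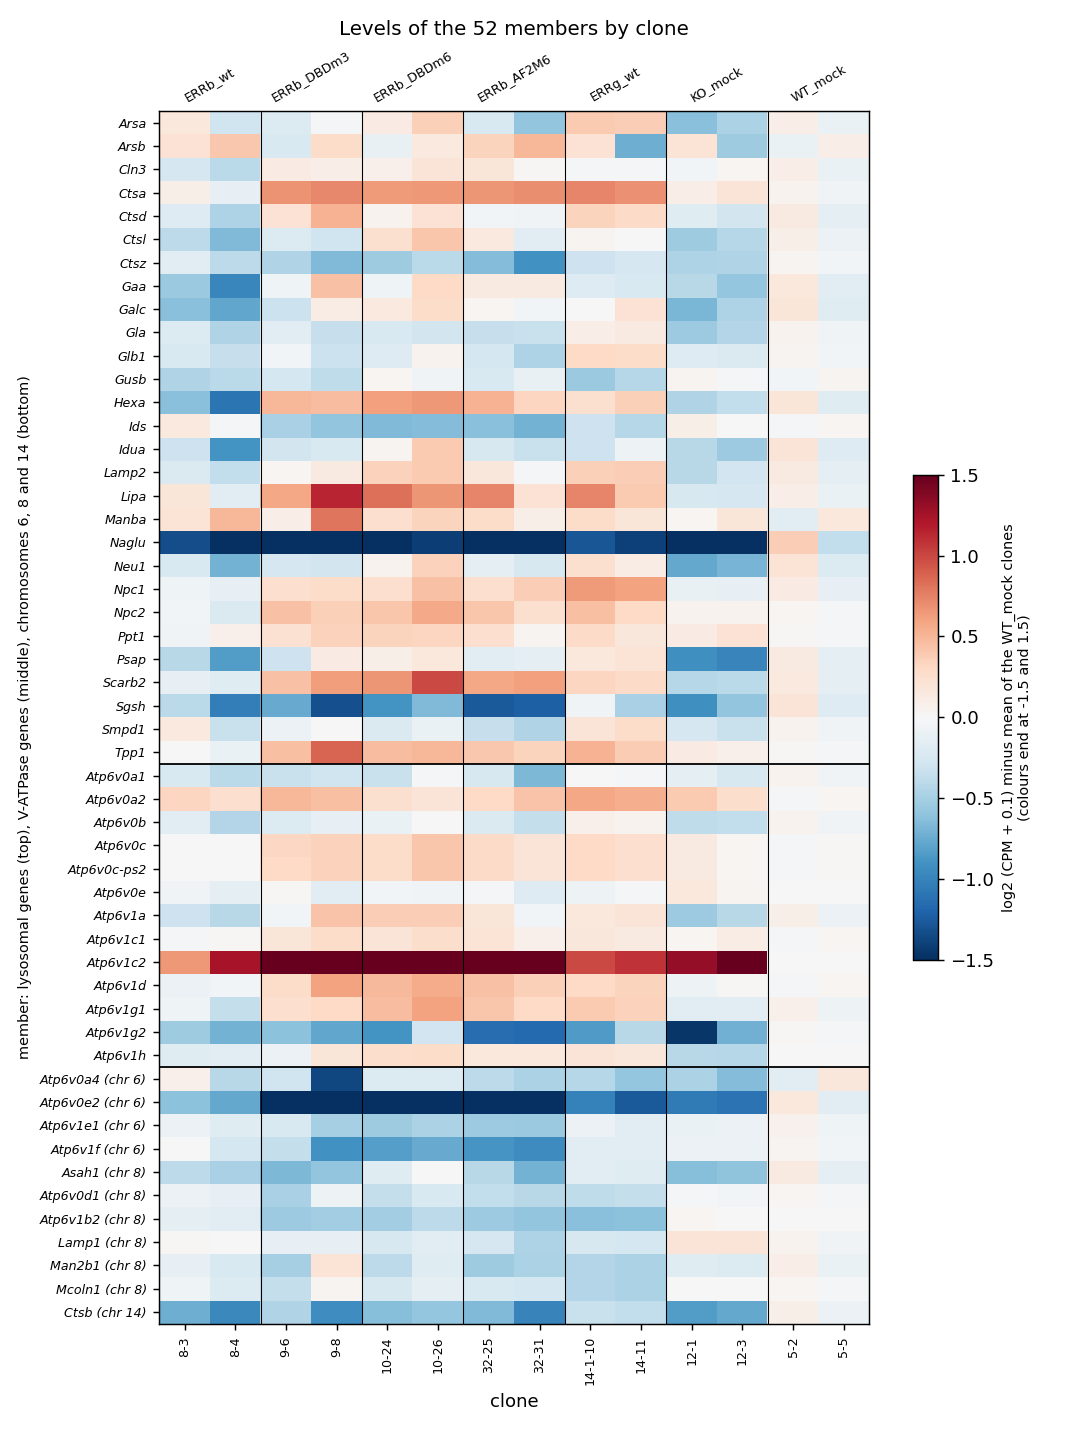
Level of each of the 52 members in each of the 14 clones, as log2 (CPM + 0.1) minus the mean of the 2 WT_mock clones. Rows are grouped into lysosomal genes, V-ATPase genes and members on chromosomes 6, 8 and 14, columns are clones by group, and colours end at −1.5 and 1.5. Blue prevails among lysosomal genes in KO_mock, while Ctsa, Hexa, Scarb2 and Tpp1 are red in the KO_ERRb_DBDm3, KO_ERRb_DBDm6, KO_ERRb_AF2M6 and KO_ERRg_wt clones.

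A good part of the lysosomal genes was lower in the Esrrb-knockout clones with the mock construct than in the cells with intact Esrrb. In KO_mock against WT_mock, 19 members were called lower and 2 higher, 40.4% of the 52, against 37.4% of all tested genes. The share called was thus close to that of all genes, and the direction was one-sided: over all genes 18% were called higher and 19.4% lower, while the members had 2 and 19. The median log2 fold change was −0.23 over the 41 members outside chromosomes 6, 8 and 14 and 0.01 over all genes there. The 28 enzyme and membrane genes outside those chromosomes had a median of −0.32, with 12 called lower and 0 higher, and the 13 V-ATPase genes there had a median of −0.03, with 4 lower and 2 higher.

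The members were sorted into roles by hand after the results had been seen. Among these roles, that of sphingolipid breakdown had the most calls, 6 of 8 lower and 0 higher. Over all tested genes 19.4% were called lower. Psap (chromosome 10, 60277628 to 60302600) encodes the precursor of the saposins, which present sphingolipids to their hydrolases. It stood at 126 and 120 CPM in the KO_mock clones and 260 and 217 CPM in the WT_mock clones (−0.95 ± 0.15, adjusted p = 0.0011). The KO_mock clones lay at 51.7% of the WT_mock level, well below both WT_mock clones. Asah1, the acid ceramidase gene on chromosome 8, had 128 and 131 CPM in KO_mock and 218 and 182 CPM in WT_mock (−0.63 ± 0.105, adjusted p = 0.00146). The median of chromosome 8 in this comparison was 0.02. Galc, the galactosylceramidase gene (−0.59 ± 0.186), Arsa, the arylsulfatase A gene (−0.55 ± 0.161), Gla, the alpha-galactosidase A gene (−0.49 ± 0.104), and Hexa, encoding the alpha subunit of beta-hexosaminidase (−0.41 ± 0.145), also fell. Glb1 and Smpd1 were not called.

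Among the enzymes that degrade glycosaminoglycans, 2 of 6 fell. Naglu (chromosome 11, 101070094 to 101077671), which encodes the alpha-N-acetylglucosaminidase of heparan sulfate breakdown, stood at 1.52 and 1.3 CPM in KO_mock and 14.1 and 8.39 CPM in WT_mock. The KO_mock level was 12.6% of the WT_mock level, the largest fall among the members. Sgsh, the sulfamidase gene of the same pathway, had 2.37 and 3.01 CPM in KO_mock and 5.25 and 4 CPM in WT_mock (−0.78 ± 0.278, adjusted p = 0.0451). Of the proteases, Ctsb (−0.81 ± 0.148), Ctsl (−0.48 ± 0.116) and Ctsz (−0.45 ± 0.104) fell, and Ctsa, Ctsd and Tpp1 were not called. Ctsb lies on chromosome 14, whose genes had a median of −0.61 in this comparison, and with the chromosome shift taken out Ctsb was at −0.20 and no longer called (adjusted p = 0.321). The sialidase gene Neu1 (−0.75 ± 0.164), Scarb2, encoding the membrane receptor that carries glucocerebrosidase to lysosomes (−0.43 ± 0.118), and Lamp2, a major membrane glycoprotein gene (−0.36 ± 0.0983), fell too.

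The pump genes moved both ways. The V1 genes Atp6v1a, the catalytic subunit (−0.48 ± 0.13), and Atp6v1h, a regulatory subunit (−0.42 ± 0.0765), and the V0 gene Atp6v0b (−0.37 ± 0.0902) fell. Atp6v1h gave the tightest values, 69.2 and 68.9 CPM in KO_mock against 92.3 and 92.5 CPM in WT_mock. The isoform genes Atp6v1g2 (−1.16 ± 0.331) and, on chromosome 6, Atp6v0e2 (−1.09 ± 0.238) fell from low or moderate levels. Atp6v0e2 had 26.3 and 25.3 CPM in KO_mock and 61.4 and 48.9 CPM in WT_mock, while the median of chromosome 6 was 0.03. The 2 called higher were Atp6v0a2, an isoform of the V0 a subunit (0.33 ± 0.0742), and Atp6v1c2, an isoform of the C subunit, which was barely detected at 0.25 and 0.303 CPM in KO_mock and 0.04 and 0.0412 CPM in WT_mock (2.69 ± 0.492).

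Calls in this comparison leaned on single clones. Without WT_mock clone 5-2, 6 members were called, while 2283 of all genes were called in place of 5702, and without KO_mock clone 12-1 there were 8. With library 2 alone of each clone, 1 member was called higher and 11 lower, and Hexa, Scarb2, Arsa and Atp6v1c2 were among those lost, while library 1 alone gave 2 higher and 21 lower. In the fits that left out each of the 14 clones in turn, Naglu, Psap, Ctsb, Asah1, Atp6v1h and Atp6v1c2 were called every time, and the other 15 were lost in at least 1 of them. Clone 5-2 was the higher of the 2 WT_mock clones in 30 of the 41 members outside chromosomes 6, 8 and 14, with a median log2 difference of 0.10, against −0.00 over all genes there. Markers of primitive and visceral endoderm, a lineage with many lysosomes, summed to 92.3 to 95.1 CPM in KO_mock and 46.6 to 48.1 CPM in WT_mock over 12 genes. Most of it was Lamb1, at 88.6 and 90.8 CPM in KO_mock and 37.8 and 35.6 CPM in WT_mock, and Ttr was at 0 in all groups. Cubn was higher in KO_mock too, at 1.23 and 1.21 CPM against 0.16 and 0.391 CPM in WT_mock. Transcription factors that define the lineage had the opposite order: Gata4, on chromosome 14, had 1.34 and 1.54 CPM in KO_mock and 7.41 and 7.38 CPM in WT_mock, and Gata6, Sox17 and Sox7, like the surface gene Amn, had lower levels in both KO_mock clones than in both WT_mock clones, at 0.205 CPM or less in KO_mock. The part of these markers in the result was not tested.

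The promoter windows of the members are shown for genes that turn up throughout the results: Naglu and Psap, which fell in KO_mock, Ctsa, which was higher in the mutant and ERR gamma groups, and Lamp1, the most abundant member per kilobase. Windows run from 250 bases before to 50 after the annotated start, taken from RefSeq on GRCm38.p6. Capitals mark CACGTG, the core of the element read by TFEB, TFE3 and MITF, and AAGGTCA with TNAAGGTCA, the half-site and extended site known for ERR proteins.
Naglu, chr11:101069844-101070143, plus strand: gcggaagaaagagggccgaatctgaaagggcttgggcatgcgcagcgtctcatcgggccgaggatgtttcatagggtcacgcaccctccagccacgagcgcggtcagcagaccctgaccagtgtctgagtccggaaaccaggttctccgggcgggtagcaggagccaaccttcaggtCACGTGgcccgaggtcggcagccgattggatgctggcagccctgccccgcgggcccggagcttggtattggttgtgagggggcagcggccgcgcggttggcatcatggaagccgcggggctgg
Psap, chr10:60277378-60277677, plus strand: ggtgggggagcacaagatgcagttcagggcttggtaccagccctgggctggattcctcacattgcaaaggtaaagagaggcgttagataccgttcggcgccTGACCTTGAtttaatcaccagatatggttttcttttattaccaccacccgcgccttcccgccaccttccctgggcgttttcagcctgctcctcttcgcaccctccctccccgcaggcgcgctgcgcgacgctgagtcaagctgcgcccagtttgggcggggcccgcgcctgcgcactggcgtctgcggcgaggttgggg
Ctsa, chr2:164833523-164833822, plus strand: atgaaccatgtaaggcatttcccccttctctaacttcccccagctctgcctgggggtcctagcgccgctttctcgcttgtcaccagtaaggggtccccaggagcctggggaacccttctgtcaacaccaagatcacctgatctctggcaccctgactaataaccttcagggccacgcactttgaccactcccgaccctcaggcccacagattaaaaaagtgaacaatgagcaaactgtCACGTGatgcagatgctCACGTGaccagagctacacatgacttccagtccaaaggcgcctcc
Lamp1, chr8:13158911-13159210, plus strand: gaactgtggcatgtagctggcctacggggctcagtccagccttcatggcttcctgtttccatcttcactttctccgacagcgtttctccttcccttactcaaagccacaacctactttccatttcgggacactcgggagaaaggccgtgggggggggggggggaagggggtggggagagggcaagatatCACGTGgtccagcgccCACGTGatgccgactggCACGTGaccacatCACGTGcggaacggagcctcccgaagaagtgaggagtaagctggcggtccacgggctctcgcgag

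Naglu had a single CACGTG, 73 bases before the start, and Lamp1 had 4 within the last 61 bases before the start. Ctsa had 2, at 12 bases before and 5 bases after the start, each inside the longer palindrome TCACGTGA. The window of another Ctsa start, not printed, had 1 AAGGTCA, starting 201 bases before that start. Psap had no CACGTG in this window and 1 TNAAGGTCA on the opposite strand, 149 bases before the start. Sequences matched 43 of the 52 members, giving 49 windows, since some genes have several starts. On both strands, CACGTG was present in 32.7% of the members' windows and 7.15% of all 32851 windows, and TCACGTGA, which overlaps it, in 16.3% and 0.974%. The extended ERR site TNAAGGTCA was present in 2 members' windows, of Psap and Idua (4.08%, against 1.28% of all windows), and the half-site AAGGTCA, which overlaps it, in 6.12% and 4.72%. A match describes the letters and shows no binding, and no binding data were used.

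With wild-type ERR beta, hardly any member passed the threshold. In KO_ERRb_wt against KO_mock, edgeR called 0 members higher and 1 lower, while 1.85% of all tested genes were called, 1.07% higher and 0.781% lower. At an unadjusted p below 0.05 there were 5 higher and 7 lower, DESeq2 called 1 higher and 4 lower, and limma-voom with the clone as a random effect called 1 higher and 3 lower. The 1 call was Gusb, the beta-glucuronidase gene, at 12.8 and 13.3 CPM in KO_ERRb_wt and 18.1 and 17.4 CPM in KO_mock (−0.44 ± 0.0963, adjusted p = 0.0467). It was lost in 10 of the 14 fits that left out a clone, with adjusted p up to 0.334, and 2 members were called without either KO_ERRb_DBDm3 clone. It was not called with library 1 alone (adjusted p = 0.0905) or library 2 alone (adjusted p = 0.147) of each clone. Gusb had not been called in KO_mock against WT_mock. The median log2 fold change of the members outside chromosomes 6, 8 and 14 was −0.04, against 0.01 over all genes there.

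Values for single genes lay between the mock groups in some cases. Naglu had 4.27 and 2.57 CPM in KO_ERRb_wt, above both KO_mock clones, with a log2 fold change of 1.28 ± 0.405 and an adjusted p of 0.124. Atp6v1h had 81.7 and 82.2 CPM in KO_ERRb_wt, also above both KO_mock clones and below both WT_mock clones, and was not called against KO_mock. Hexa went the other way, with 79.1 and 56.9 CPM in KO_ERRb_wt against 89.3 and 94.8 CPM in KO_mock, and was not called. The p-values do not show that the KO_ERRb_wt and KO_mock levels were alike.

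Against WT_mock, 10 members were called lower and 2 higher in KO_ERRb_wt (23.1% of the members), while 10.3% of all tested genes were called, 5.79% lower and 4.49% higher. All 10 were enzyme or membrane genes and none was a pump gene. Naglu (−1.71 ± 0.377), Ctsb (−0.85 ± 0.148), Hexa (−0.85 ± 0.146), Gaa (−0.76 ± 0.186), the acid alpha-glucosidase gene, and Galc (−0.73 ± 0.187) had the lowest values. Ctsb lies on chromosome 14, whose genes had a median of −0.56 in this comparison. Of the 10, 8 lie outside chromosomes 6, 8 and 14, and 1 lies on chromosome 8, whose median was 0.03. Atp6v1c2 (2.04 ± 0.525) and Atp6v0a2 (0.29 ± 0.0741) were the 2 called higher. This count rested on 2 clones, since no member was called without WT_mock clone 5-2 or without KO_ERRb_wt clone 8-4, and 20 were called without either KO_ERRb_DBDm3 clone. With library 2 alone of each clone, 2 members were called. Clone 8-3 was above clone 8-4 in 31 of the 41 members outside chromosomes 6, 8 and 14, with a median log2 difference of 0.16 against 0.01 over all genes there.

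**Figure D2:**
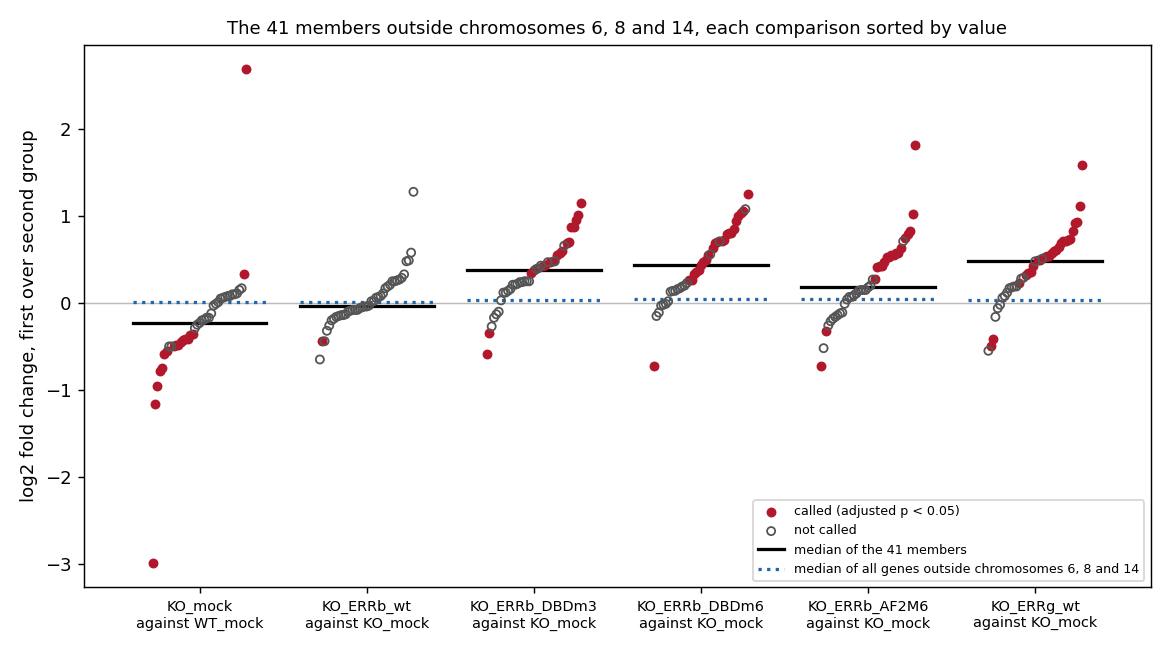
Log2 fold change of the 41 members outside chromosomes 6, 8 and 14 in KO_mock against WT_mock and in 5 comparisons against KO_mock, sorted by value within each. Filled points were called at an adjusted p below 0.05, solid bars are the members' medians and dotted bars the medians of all genes outside those chromosomes. The members' median is −0.23 in KO_mock against WT_mock, near 0 in KO_ERRb_wt against KO_mock, and 0.38, 0.44, 0.18 and 0.48 in KO_ERRb_DBDm3, KO_ERRb_DBDm6, KO_ERRb_AF2M6 and KO_ERRg_wt against KO_mock.

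In the knockout clones with mutant ERR beta or with ERR gamma, more members were called higher than lower against those with the mock construct. These 4 comparisons share the KO_mock clones, so their values stand side by side and are not independent. KO_ERRb_DBDm3 had 16 members called higher and 7 lower against KO_mock, while 25.7% of all tested genes were called, 12.4% higher and 13.3% lower. KO_ERRb_DBDm6 had 24 higher and 6 lower, while 41.4% of all genes were called, 20.8% higher and 20.6% lower. KO_ERRb_AF2M6 had 17 higher and 8 lower, while 37.1% of all genes were called, 18% higher and 19.1% lower. KO_ERRg_wt had 26 higher and 6 lower, while 38.3% of all genes were called, 20% higher and 18.3% lower. With the shifts of chromosomes 6, 8 and 14 taken out, the splits were 20 higher and 2 lower, 27 and 1, 20 and 3, and 27 and 2 in that order of groups. Among the 41 members outside chromosomes 6, 8 and 14 the counts were 16 higher and 2 lower, 23 and 1, 17 and 2, and 24 and 2 in that order of groups. All genes outside those chromosomes had medians of 0.04 or 0.05, and 1777 to 2968 of 13192 were called higher there and 1097 to 2097 lower.

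Scarb2 (chromosome 5, 92443873 to 92505608) had 45.8 and 52.3 CPM in KO_ERRb_DBDm3, 53.5 and 67.4 CPM in KO_ERRb_DBDm6, 50.7 and 51.6 CPM in KO_ERRb_AF2M6 and 42.2 and 41.4 CPM in KO_ERRg_wt, against 25 and 25.5 CPM in KO_mock. All 8 clones lay above both KO_mock clones and also above both WT_mock clones, at 37.3 and 30.6 CPM. The log2 fold changes against KO_mock were 0.96 ± 0.118, 1.26 ± 0.119, 1.02 ± 0.118 and 0.73 ± 0.119. KO_ERRb_wt, at 30.9 and 29.8 CPM, lay below every one of the 8 clones.

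Hexa had 172 and 168 CPM in the KO_ERRb_DBDm3 clones, 187 and 192 CPM in KO_ERRb_DBDm6, 175 and 153 CPM in the KO_ERRb_AF2M6 clones and 144 and 157 CPM in KO_ERRg_wt, against 89.3 and 94.8 CPM in KO_mock. The log2 fold changes against KO_mock were 0.88 ± 0.145, 1.04 ± 0.146, 0.83 ± 0.145 and 0.71 ± 0.146. Ctsa (chromosome 2, 164832872 to 164841032), encoding the protease that protects sialidase and beta-galactosidase in lysosomes, was within a narrow band of 145 to 155 CPM in all 8 clones, against 99.9 and 106 CPM in KO_mock. Its log2 fold changes were 0.55 ± 0.0735, 0.50 ± 0.0734, 0.53 ± 0.0734 and 0.57 ± 0.0738, although Ctsa had not been called in KO_mock against WT_mock. Scarb2, Hexa and Ctsa were called in these 4 comparisons in every fit that left out a clone. The Hexa values are sums over libraries that stood apart, at 149 and 197 CPM in clone 9-6, 167 and 207 CPM in 10-24, 172 and 212 CPM in 10-26 and 156 and 200 CPM in 32-25 for libraries 1 and 2. With library 1 alone or library 2 alone of each clone, Hexa, Scarb2 and Ctsa were called higher than KO_mock in these 4 comparisons.

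**Figure D3:**
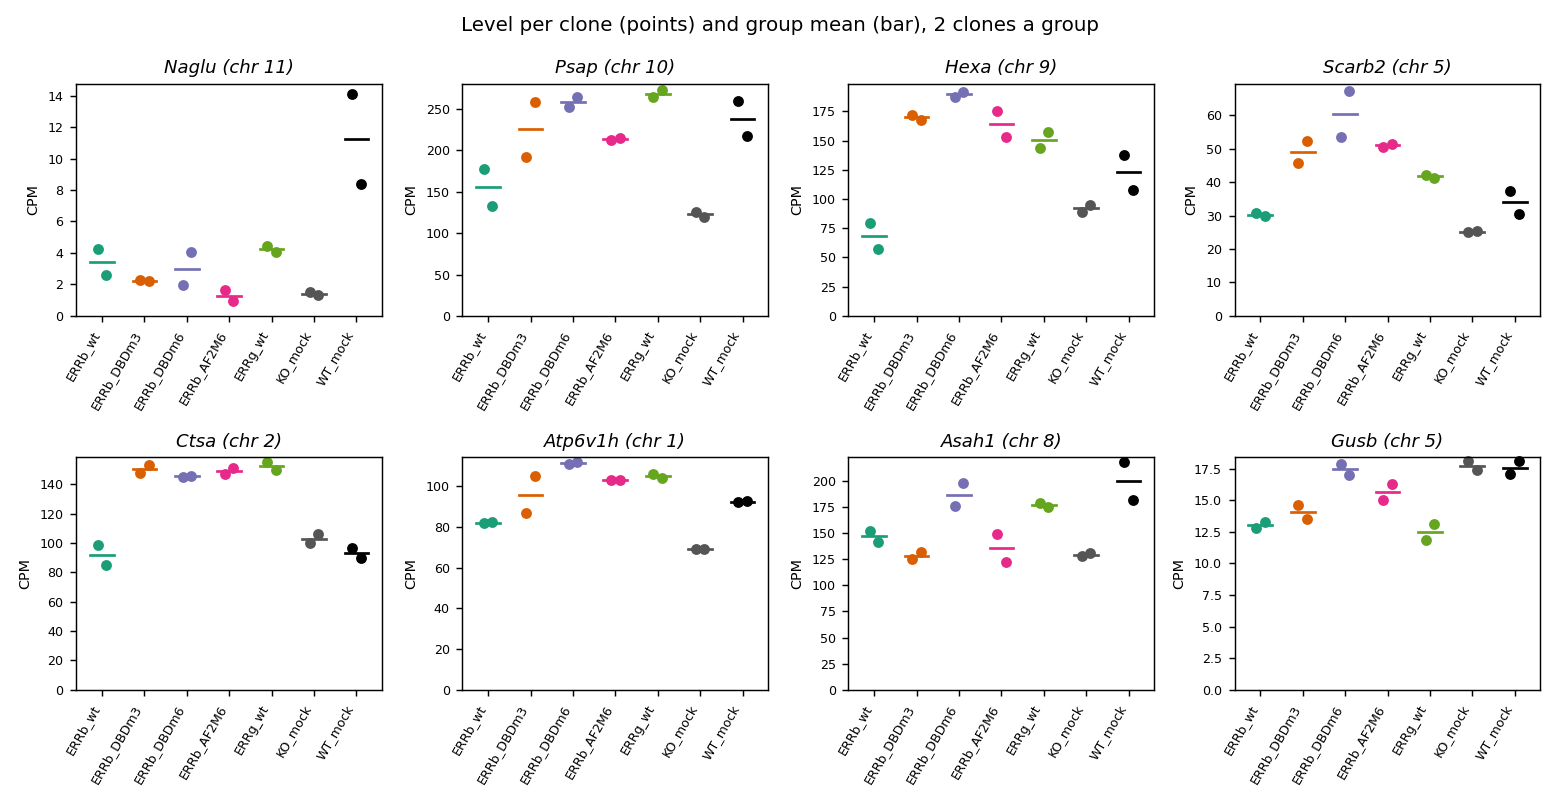
Level of 8 members in each clone, in CPM on axes from 0, with the group mean as a bar. Ctsa, Scarb2 and Hexa have all clones of KO_ERRb_DBDm3, KO_ERRb_DBDm6, KO_ERRb_AF2M6 and KO_ERRg_wt above those of KO_ERRb_wt, KO_mock and WT_mock. Naglu is highest in WT_mock, and Gusb is lowest in KO_ERRg_wt and KO_ERRb_wt.

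Psap stood at 192 and 259 CPM in KO_ERRb_DBDm3, 252 and 264 CPM in KO_ERRb_DBDm6, 212 and 215 CPM in KO_ERRb_AF2M6 and 264 and 273 CPM in KO_ERRg_wt, against 126 and 120 CPM in KO_mock (0.87 ± 0.15, 1.06 ± 0.15, 0.79 ± 0.149 and 1.12 ± 0.151). Unlike Ctsa, Psap was near the WT_mock clones, at 260 and 217 CPM, and it was called against WT_mock in none of the 4 groups. Lipa, the lysosomal acid lipase gene, had 9.33 and 13.8 CPM, 11 and 9.84 CPM, 10.3 and 7.18 CPM and 10.3 and 8.17 CPM in the same 4 groups, against 5.23 and 5.19 CPM in KO_mock. The cholesterol exporter gene Npc1 (0.38 ± 0.0874, 0.47 ± 0.0874, 0.43 ± 0.0873 and 0.74 ± 0.088) and its soluble partner Npc2 (0.34 ± 0.0856, 0.44 ± 0.0857, 0.28 ± 0.0856 and 0.32 ± 0.0858) were higher too. The fourth gene of lipid handling, Ppt1, was called in none of these comparisons.

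By these hand-made roles, all 8 sphingolipid genes were called higher in KO_ERRg_wt than in KO_mock, with log2 fold changes from 0.45 to 1.12. Over all tested genes 20% were called higher there. In KO_ERRb_DBDm3, KO_ERRb_DBDm6 and KO_ERRb_AF2M6, 2, 5 and 3 of the 8 were called higher. Arsa had 39.7 and 38.8 CPM in KO_ERRg_wt against 19.5 and 21.6 CPM in KO_mock (0.93 ± 0.163). Neu1 was higher in KO_ERRg_wt (0.92 ± 0.166), KO_ERRb_DBDm6 (0.94 ± 0.165) and KO_ERRb_AF2M6 (0.55 ± 0.164). Of the 6 proteases, 3, 4, 2 and 5 were called higher in KO_ERRb_DBDm3, KO_ERRb_DBDm6, KO_ERRb_AF2M6 and KO_ERRg_wt. Ctsd was called higher in KO_ERRb_DBDm3 (0.60 ± 0.123), KO_ERRb_DBDm6 (0.36 ± 0.123) and KO_ERRg_wt (0.54 ± 0.123) and not in KO_ERRb_AF2M6.

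The glycosaminoglycan enzymes had fewer calls upward, 0, 1, 0 and 1 of 6 in that order of groups. Naglu had 4.41 and 4.06 CPM in KO_ERRg_wt, called higher than KO_mock (1.59 ± 0.413, adjusted p = 0.0114), and 1.66 and 0.929 CPM in KO_ERRb_AF2M6, overlapping the KO_mock clones. The KO_ERRg_wt call was lost without KO_mock clone 12-1, without KO_mock clone 12-3 or without KO_ERRg_wt clone 14-1-10, with adjusted p up to 0.074. Every group was below WT_mock for Naglu, from −3.11 ± 0.408 in KO_ERRb_AF2M6 to −1.41 ± 0.381 in KO_ERRg_wt. The KO_ERRg_wt value lost its call against WT_mock without WT_mock clone 5-2 or either KO_ERRg_wt clone, with adjusted p up to 0.154. Ids, the iduronate sulfatase gene on the X chromosome, went down: it had 5.63 and 5.21 CPM in KO_ERRb_DBDm3, 4.97 and 4.99 CPM in KO_ERRb_DBDm6, 5.08 and 4.79 CPM in KO_ERRb_AF2M6 and 6.38 and 5.88 CPM in KO_ERRg_wt, against 8.39 and 7.96 CPM in KO_mock. The 8 clones were all below the KO_mock and WT_mock clones. Gusb fell in KO_ERRb_DBDm3 (−0.34 ± 0.0961) and KO_ERRg_wt (−0.50 ± 0.0984) and was not called in KO_ERRb_DBDm6 or KO_ERRb_AF2M6.

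Several V1 genes outside chromosomes 6, 8 and 14 were higher too, while Atp6v1c1 and Atp6v1g2 were called in none of the 4 groups against KO_mock. Atp6v1h had 86.8 and 105 CPM in KO_ERRb_DBDm3, 111 and 112 CPM in KO_ERRb_DBDm6, 103 and 103 CPM in KO_ERRb_AF2M6 and 106 and 104 CPM in KO_ERRg_wt, against 69.2 and 68.9 CPM in KO_mock. Atp6v1a (0.69 ± 0.13, 0.85 ± 0.131, 0.55 ± 0.13 and 0.65 ± 0.131), Atp6v1g1, a peripheral stalk subunit (0.44 ± 0.0977, 0.70 ± 0.0978, 0.53 ± 0.0977 and 0.54 ± 0.0983), and Atp6v1d, a central stalk subunit (0.48 ± 0.0922, 0.55 ± 0.0922, 0.43 ± 0.0922 and 0.34 ± 0.0929), were called in all 4 groups. The V0 genes had fewer calls: 0, 3, 0 and 2 of 9 were higher. Of the 3 in KO_ERRb_DBDm6, 2 were the paired rows Atp6v0c and Atp6v0c-ps2, at 0.27 each. Atp6v1c2 reached its highest level in KO_ERRb_AF2M6, at 1.02 and 0.949 CPM, against 0.25 and 0.303 CPM in KO_mock (1.82 ± 0.314). Its KO_ERRb_DBDm3 value (1.01 ± 0.328) was called in the fit of all clones and lost the call in 12 of the 14 fits that left out a clone.

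Leaving out 1 clone changed the size of these counts. Without KO_mock clone 12-1, the members called against KO_mock numbered 11 for KO_ERRb_DBDm3, 22 for KO_ERRb_DBDm6, 15 for KO_ERRb_AF2M6 and 20 for KO_ERRg_wt, and without KO_mock clone 12-3 they numbered 12 for KO_ERRb_DBDm3. The members called in every such fit, higher or lower, numbered 10, 22, 15 and 17 in that order of groups. Atp6v1h, Psap, Ctsa, Scarb2 and Hexa, all higher than in KO_mock, were among them in each. So was Atp6v1b2, on chromosome 8, which was lower than in KO_mock in each. The KO_ERRb_DBDm3 clones differed between themselves for several members, with Psap at 192 CPM in clone 9-6 and 259 CPM in clone 9-8, Atp6v1a at 189 and 261 CPM and Manba at 193 and 314 CPM. These 4 groups also differed from KO_mock in markers of another lineage. The 7 trophoblast markers summed to 111 to 187 CPM in the KO_ERRb_DBDm3 clones, 122 to 125 CPM in those of KO_ERRb_DBDm6, 120 to 181 CPM in the KO_ERRb_AF2M6 clones and 79.2 to 93.1 CPM in the KO_ERRg_wt clones, against 41 to 49.1 CPM in KO_mock and 28.8 to 32.5 CPM in WT_mock. Most of that sum was Tfap2c, and Elf5 and Hand1 were at or near 0. Krt7 was higher too, averaging 2.09, 3.48, 2.78 and 6.27 CPM in that order of groups, against 0.319 CPM in KO_mock and 1.01 CPM in WT_mock. Other markers of the list had the opposite order. Eomes averaged 3.02, 2.89, 3.95 and 5.46 CPM in KO_ERRb_DBDm3, KO_ERRb_DBDm6, KO_ERRb_AF2M6 and KO_ERRg_wt, against 7.47 CPM in KO_mock, and Cdx2 averaged 0.945, 1.21, 3.46 and 0.228 CPM, against 4.51 CPM in KO_mock. The part of these markers in the result was not tested.

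The same 4 groups were set against KO_ERRb_wt, a comparison between groups of 2 clones. Against KO_ERRb_wt, the median of chromosome 6 was −0.64, −0.96, −0.96 and −0.37 in KO_ERRb_DBDm3, KO_ERRb_DBDm6, KO_ERRb_AF2M6 and KO_ERRg_wt. That of chromosome 8 was −0.57 to −0.53. A difference between receptors therefore cannot be told apart from these chromosome levels or from other differences between the clones. KO_ERRb_DBDm3 had 22 members called higher and 4 lower, while 32.1% of all genes were called, 15.3% higher and 16.8% lower. KO_ERRb_DBDm6 had 27 and 6, while 39% of all genes were called, 19.1% higher and 20% lower. KO_ERRb_AF2M6 had 19 and 9, while 43.2% were called, 20.3% higher and 22.8% lower, and KO_ERRg_wt had 24 and 3, while 25.4% were called, 13.5% higher and 11.9% lower. With the chromosome shifts taken out, KO_ERRb_DBDm6 had 34 and 2 and KO_ERRb_AF2M6 21 and 4. Hexa had the largest gain among the enzymes in each: 1.32 ± 0.147 for KO_ERRb_DBDm3, 1.48 ± 0.147 for KO_ERRb_DBDm6, 1.27 ± 0.147 for KO_ERRb_AF2M6 and 1.14 ± 0.147 for KO_ERRg_wt. Gaa rose in the 3 mutant groups (0.96 ± 0.186, 0.89 ± 0.186 and 0.89 ± 0.186) and was not called in KO_ERRg_wt. Naglu fell in KO_ERRb_AF2M6 (−1.40 ± 0.404) and was not called in the other 3 groups, and the KO_ERRb_AF2M6 call was lost without KO_ERRb_wt clone 8-3 or KO_ERRb_AF2M6 clone 32-31. Without KO_ERRb_wt clone 8-4 the count for KO_ERRg_wt was 11, and without either KO_ERRg_wt clone it was 11 or 13.

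Set against WT_mock, a comparison added after the levels had been seen, the 4 groups had calls in both directions. KO_ERRb_DBDm3 had 16 members called higher and 11 lower, while 48.1% of all genes were called, 23.2% higher and 24.9% lower. KO_ERRb_DBDm6 had 19 and 11, while 46.3% were called, 22.3% higher and 24% lower. KO_ERRb_AF2M6 had 12 and 20, while 55% were called, 26.1% higher and 28.9% lower, and KO_ERRg_wt had 11 and 7, while 28.1% were called, 14.2% higher and 13.9% lower. These splits moved with the scaling: TMM factors from genes outside chromosomes 6, 8 and 14 gave 13 and 15 in KO_ERRb_DBDm3 and 8 and 10 in KO_ERRg_wt. With the chromosome shifts taken out, the splits were 19 and 6, 22 and 5, 13 and 12, and 13 and 3 in that order of groups. Ctsa (0.69 ± 0.0736, 0.65 ± 0.0735, 0.68 ± 0.0736 and 0.72 ± 0.0739), Npc1, Npc2, Tpp1, Atp6v1c2, Atp6v1d, Atp6v1g1, Atp6v0a2 and the paired rows Atp6v0c and Atp6v0c-ps2 were called above WT_mock in each. Of the genes that fell in KO_mock, Naglu and, on chromosome 6, Atp6v0e2 were still below WT_mock in each. The median of chromosome 6 against WT_mock was −0.65, −0.94, −0.95 and −0.35 in that order of groups. Ctsz (−0.55 ± 0.105, −0.47 ± 0.104 and −0.77 ± 0.105), Sgsh (−1.05, −0.81 and −1.30) and, on chromosome 14, Ctsb (−0.67 ± 0.147, −0.61 ± 0.147 and −0.82 ± 0.148) were below WT_mock in the 3 mutant groups. Asah1 was below in KO_ERRb_DBDm3 (−0.64 ± 0.105) and KO_ERRb_AF2M6 (−0.56 ± 0.105), and Arsa, Gla, Atp6v1g2 and Atp6v0b were below in KO_ERRb_AF2M6. With the chromosome shifts taken out, Ctsb (−0.13, −0.10 and −0.29 in the 3 mutant groups) and Asah1 (−0.13 and −0.04) were no longer called. For KO_ERRg_wt the count moved to 8 without WT_mock clone 5-2, 9 without 5-5, 6 without KO_ERRg_wt clone 14-1-10, 7 without 14-11 and 28 without either KO_ERRb_DBDm3 clone. It was 21 for KO_ERRb_AF2M6 without 5-2 and 18 for KO_ERRb_DBDm6 without clone 10-26.

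The 11 members on chromosomes 6, 8 and 14 had more calls downward in these groups. Relative to WT_mock, the median log2 level of all genes on chromosome 6 was −0.41 and −0.91 in the KO_ERRb_DBDm3 clones, −0.94 to −0.91 in the KO_ERRb_DBDm6 and KO_ERRb_AF2M6 clones, −0.33 in both KO_ERRg_wt clones and 0.02 to 0.04 in the KO_ERRb_wt and KO_mock clones. On chromosome 8 it was −0.53 to −0.43 in the 8 clones of the first 4 groups and 0.02 to 0.03 in KO_ERRb_wt and KO_mock. On chromosome 14 it was −0.62 to −0.50 in all 12 knockout clones. In every comparison with WT_mock, the Esrrb knockout and this lower chromosome 14 therefore cannot be told apart. The 4 groups with lower chromosomes 6 and 8 are the same 4 in which the other members were higher, so the construct and these chromosome levels cannot be told apart.

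On chromosome 6, the V1 gene Atp6v1f had 102 and 69.8 CPM in KO_ERRb_DBDm3, 73.7 and 77.7 CPM in KO_ERRb_DBDm6, 71 and 68.1 CPM in KO_ERRb_AF2M6 and 117 and 116 CPM in KO_ERRg_wt, against 123 and 123 CPM in KO_mock. Its log2 fold changes were −0.52 ± 0.14, −0.70 ± 0.14 and −0.82 ± 0.141 in the mutant groups, where the medians of chromosome 6 were −0.63, −0.93 and −0.96. Of the KO_ERRb_DBDm3 clones, 9-8 was lower than 9-6 in both Atp6v1f and the chromosome median. Atp6v1e1 was at −0.26 ± 0.084, −0.41 ± 0.0841 and −0.46 ± 0.0842. With the chromosome shift taken out, the signs turned: Atp6v1f stood at 0.15, 0.25 and 0.15 and Atp6v1e1 at 0.43, 0.54 and 0.51 in the mutant groups. Atp6v0e2 was at −0.90 ± 0.242, −1.24 ± 0.245 and −1.69 ± 0.25, with 7.23 and 8.75 CPM in KO_ERRb_AF2M6, and with the shift taken out it stayed lower and called in KO_ERRb_AF2M6 (−0.72, adjusted p = 0.00793) and was not called in KO_ERRb_DBDm3 (−0.26) or KO_ERRb_DBDm6 (−0.29). Atp6v0a4 had at most 2.12 CPM in any clone and was not called.

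On chromosome 8, Lamp1 had 454 and 454 CPM in KO_ERRb_DBDm3, 418 and 441 CPM in KO_ERRb_DBDm6, 417 and 360 CPM in KO_ERRb_AF2M6 and 420 and 414 CPM in KO_ERRg_wt, against 565 and 566 CPM in KO_mock. Its log2 fold changes were −0.32 ± 0.0704, −0.40 ± 0.0704, −0.54 ± 0.0705 and −0.44 ± 0.0706, beside medians of −0.53, −0.49, −0.55 and −0.53 for the chromosome. Atp6v1b2, the V1 B subunit gene of most tissues, was at −0.55 ± 0.0549, −0.48 ± 0.0549, −0.59 ± 0.0549 and −0.64 ± 0.0552. With the chromosome shift taken out, Lamp1 turned to 0.22, 0.10, 0.00 and 0.09 and Atp6v1b2 was at −0.02, 0.02, −0.05 and −0.12, not called. Atp6v0d1, a V0 subunit gene, fell in KO_ERRb_AF2M6 (−0.36 ± 0.105) and KO_ERRg_wt (−0.34 ± 0.106), and the lysosomal calcium channel gene Mcoln1 fell in KO_ERRg_wt (−0.46 ± 0.113). Both genes turned to positive values with the shift taken out, Atp6v0d1 to 0.18 and 0.19 and Mcoln1 to 0.07. Asah1 went against its chromosome, with 176 and 198 CPM in KO_ERRb_DBDm6 and 179 and 175 CPM in KO_ERRg_wt against 128 and 131 CPM in KO_mock (0.53 ± 0.105 and 0.45 ± 0.105), and was at 1.02 and 0.97 with the shift taken out. It was not called in KO_ERRb_DBDm3 or KO_ERRb_AF2M6. Ctsb, on chromosome 14, was called higher only in KO_ERRg_wt among these comparisons, with 260 and 253 CPM in KO_ERRg_wt against 183 and 192 CPM in KO_mock (0.45 ± 0.147). That call was lost without either KO_mock clone or either KO_ERRg_wt clone, with adjusted p up to 0.142.

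**Figure D4:**
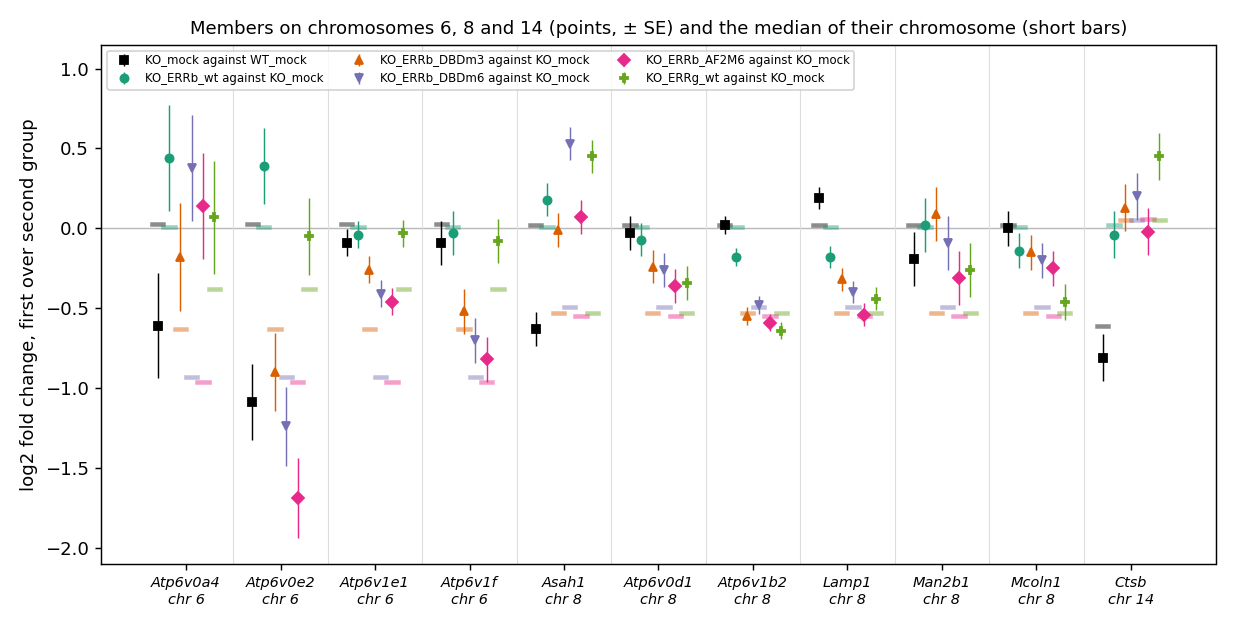
Log2 fold change (points, ± SE) of the 11 members on chromosomes 6, 8 and 14 in 6 comparisons, with the median of all tested genes on the same chromosome in that comparison as a short bar. Atp6v1f, Atp6v1b2 and Lamp1 lie at or somewhat above the lowered medians in the mutant groups, Asah1 lies above 0 in KO_ERRb_DBDm6 and KO_ERRg_wt, and Atp6v0e2 lies below its median in KO_ERRb_DBDm3, KO_ERRb_DBDm6 and KO_ERRb_AF2M6 and above it in KO_ERRb_wt and KO_ERRg_wt against KO_mock.

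Genes around the members were read from lists of the pathway. Of 40 tested lysosomal genes that are not members, 15 were called lower and 4 higher in KO_mock against WT_mock, with a median of −0.25, and 1 lower and 0 higher in KO_ERRb_wt against KO_mock. Over all tested genes 19.4% were lower and 18% higher in the first comparison, and 0.781% and 1.07% in the second. Of the 40, against KO_mock, 12, 17, 13 and 18 were higher and 6, 5, 8 and 3 lower in KO_ERRb_DBDm3, KO_ERRb_DBDm6, KO_ERRb_AF2M6 and KO_ERRg_wt, with medians of 0.18, 0.18, 0.18 and 0.21. Over all tested genes 12.4%, 20.8%, 18% and 20% were higher and 13.3%, 20.6%, 19.1% and 18.3% lower. Laptm4b, a lysosomal membrane protein gene, had 12 and 11.5 CPM in KO_mock and 56.7 and 47.5 CPM in WT_mock (−2.15 ± 0.248). Against KO_mock it was higher by 1.81 ± 0.247, 2.24 ± 0.249, 1.78 ± 0.246 and 1.46 ± 0.248 in the same 4 groups. The tetraspanin gene Cd63 was the 1 gene called in KO_ERRb_wt against KO_mock, at 29.1 and 26.5 CPM in KO_ERRb_wt against 45.3 and 47.7 CPM in KO_mock (−0.74 ± 0.0888). Igf2r, the receptor that sorts enzymes to lysosomes, fell in KO_mock (−0.59 ± 0.0755) and was higher than KO_mock in KO_ERRb_DBDm3 (0.47 ± 0.0755), KO_ERRb_DBDm6 (0.86 ± 0.0757), KO_ERRb_AF2M6 (0.87 ± 0.0757) and KO_ERRg_wt (0.28 ± 0.0759).

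Of 13 tested genes for V-ATPase assembly and the a3 subunit, 2 were called higher and 3 lower in KO_mock against WT_mock and 0 in KO_ERRb_wt against KO_mock. The first share was near that of all tested genes, of which 37.4% were called, and in the second comparison 1.85% of all were called. The accessory subunit gene Atp6ap1 was higher than KO_mock in KO_ERRb_DBDm3 (0.69 ± 0.0936), KO_ERRb_DBDm6 (0.74 ± 0.0937), KO_ERRb_AF2M6 (0.71 ± 0.0936) and KO_ERRg_wt (0.71 ± 0.0942). Tcirg1, which encodes the a3 subunit, was called in 1 of all comparisons, at 23.6 and 23 CPM in KO_ERRg_wt against 15.8 and 14.3 CPM in KO_mock (0.63 ± 0.18). Of 27 autophagy genes, 6 were higher and 5 lower in KO_mock against WT_mock, with a median of 0.03. That share too was near the 37.4% called over all tested genes. Wipi1, an early autophagosome protein gene, fell in KO_mock (−1.98 ± 0.274) and was higher than KO_mock in KO_ERRg_wt (1.81 ± 0.277). The receptor gene Sqstm1 was higher than KO_mock in each of the 4 groups (0.49 ± 0.0691, 0.56 ± 0.0691, 0.56 ± 0.0691 and 0.45 ± 0.0692).

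Of the factors known to drive lysosomal genes, Tfe3 was called in both main comparisons. It stood at 44 and 51.2 CPM in KO_ERRb_wt, 113 and 107 CPM in KO_mock and 66.7 and 73 CPM in WT_mock. Tfe3 was called higher in KO_mock than in WT_mock (0.66 ± 0.0814, adjusted p = 3.48e-04) and lower in KO_ERRb_wt than in KO_mock (−1.21 ± 0.0825, adjusted p = 1.61e-04), where it had the smallest p of all 15238 genes. It was also lower than KO_mock in KO_ERRg_wt (−0.75 ± 0.0823), KO_ERRb_DBDm6 (−0.39 ± 0.0811) and KO_ERRb_AF2M6 (−0.29 ± 0.081), and was not called in KO_ERRb_DBDm3 (−0.15 ± 0.0809). In KO_mock against WT_mock Tfe3 was higher while 19 members were lower. The activity of TFE3 is known to depend on where the protein lies in the cell, which RNA counts do not show. The part of TFE3 in the members' levels was not tested. Mitf, on chromosome 6, had 83.5 and 81.5 CPM in KO_mock and 28.6 and 33.7 CPM in WT_mock (1.41 ± 0.337), and 21.8 and 23.5 CPM in KO_ERRb_DBDm6. Tfeb was called in none of the comparisons. Of the 24 tested genes in the list of these factors and the nutrient-sensing machinery on lysosomes, 11 were higher and 3 lower in KO_mock against WT_mock, with a median of 0.21. Over all tested genes 18% were called higher and 19.4% lower.

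**Figure D5:**
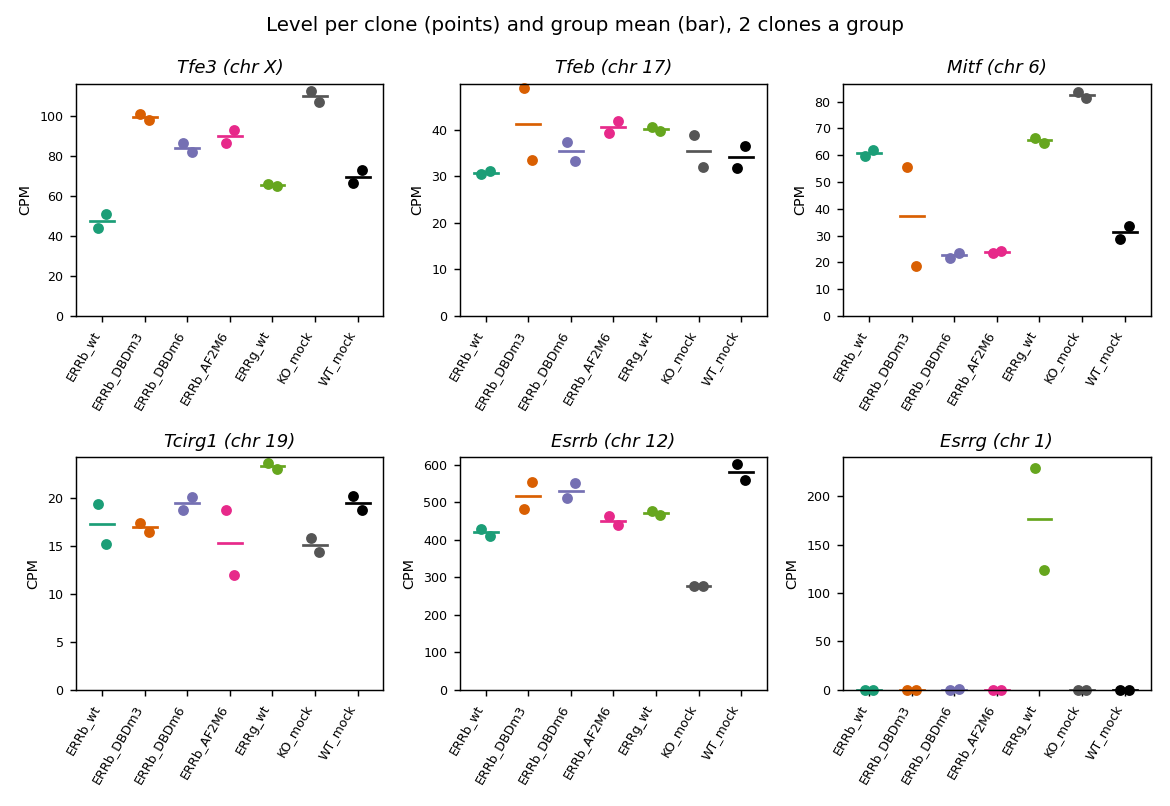
Level of Tfe3, Tfeb, Mitf, Tcirg1, Esrrb and Esrrg in each clone, in CPM on axes from 0, with the group mean as a bar. Tfe3 is lowest in KO_ERRb_wt and highest in KO_mock, and Esrrg is seen in KO_ERRg_wt.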

How the data were processed

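Mouse ESC RNA from 26 libraries of 14 clones was sequenced as single-end 100 bp reads after removal of ribosomal RNA, per the labels' protocols. The deposited values are whole-number read counts per gene, made by the authors with featureCounts in reverse-strand mode over exons, per the file header, which names version 2.0.1, while the submitters' processing notes give 2.0.10. Per the submitters' processing notes, alignment used STAR 2.7.8a with mm10 as the genome. A read on overlapping genes was counted to each, so genes sharing exons share counts.

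The 2 libraries of a clone were summed and clones tested as replicates with edgeR 4.0.16 in R 4.3.3 (filterByExpr, TMM factors from 0.972 to 1.05, quasi-likelihood F test, 1 fit of 7 groups with 7 residual degrees of freedom, Benjamini-Hochberg adjustment). The SE is the absolute log2 fold change divided by the square root of F. Library totals ran from 21276790 to 30021667 counts, and this depth covers counting error only. Members, gene lists and tests were chosen with earlier results of these data known, and roles were written by hand after the results had been seen. Named were all members called in KO_mock against WT_mock, the members with the largest called changes elsewhere and the members on chromosomes 6, 8 and 14. Others were named after their values were seen. The script was tested on simulated data. Alternatives were other size factors, no filter, DESeq2 1.42.0, limma-voom (limma 3.58.1), an offset that removes the shift of chromosomes 6, 8 and 14, leaving out each clone, and 1 library of each clone.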

Additional observations from a re-analysis of the deposited data

How the results depend on the processing

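Of 365 calls on members, 362 kept side and direction with RLE size factors, 341 with TMM factors from genes outside chromosomes 6, 8 and 14, 340 without the filter on low counts, 360 with DESeq2 and 354 with limma-voom. Leaving out 1 clone kept 4506 of 5110 and reversed 0. For KO_ERRb_wt against KO_mock the members called were 0 without the filter, 5 with DESeq2 and 4 with limma-voom, and for KO_ERRb_wt against WT_mock 22 with limma-voom. With 1 library of each clone in place of the sum, an alternative chosen after the libraries had been seen to differ, 331 calls were kept with library 1 and 281 with library 2, and 0 reversed. The members called with library 2 were 12 in KO_mock against WT_mock, 0 in KO_ERRb_wt against KO_mock (0 with library 1 too) and 2 in KO_ERRb_wt against WT_mock, and in the other comparisons the counts stayed within 1.5 times. Library numbers were not used to pair libraries across clones. The differences between library 1 and library 2 correlated from −0.30 to 0.71 over 66 clone pairs, with a median of 0.01. In 24 of the pairs the correlation was over 0.1, so some clones had libraries that deviated together. A replicate block kept 274 of 288 calls and gave 21 members for KO_ERRb_wt against WT_mock.

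Leaving out 1 clone, the members called ranged from 6 to 24 in KO_mock against WT_mock. Against KO_mock they ranged from 0 to 2 in KO_ERRb_wt, 11 to 27 in KO_ERRb_DBDm3, 22 to 33 in KO_ERRb_DBDm6, 15 to 29 in KO_ERRb_AF2M6 and 20 to 33 in KO_ERRg_wt. Against KO_ERRb_wt they ranged from 18 to 31, 23 to 35, 22 to 32 and 11 to 33 in KO_ERRb_DBDm3, KO_ERRb_DBDm6, KO_ERRb_AF2M6 and KO_ERRg_wt. Against WT_mock they ranged from 0 to 20 in KO_ERRb_wt and, in the other 4 in that order, from 20 to 32, 18 to 33, 21 to 35 and 6 to 28. For any difference they ranged from 38 to 49.

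The offset that takes out the shift of chromosomes 6, 8 and 14 kept 303 calls and reversed 42 values, all of genes on chromosomes 6 and 8, by its own construction. Against KO_mock, Atp6v1f turned to 0.15 (KO_ERRb_DBDm3), 0.25 (KO_ERRb_DBDm6) and 0.15 (KO_ERRb_AF2M6), Atp6v1e1 to 0.43, 0.54 and 0.51, Lamp1 to 0.22, 0.10, 0.00 and, in KO_ERRg_wt, 0.09, Atp6v1b2 to 0.02 (KO_ERRb_DBDm6), Atp6v0d1 to 0.18 (KO_ERRb_AF2M6) and 0.19 (KO_ERRg_wt) and Mcoln1 to 0.07 (KO_ERRg_wt). Against KO_ERRb_wt, Atp6v1f turned to 0.18, 0.28 and 0.18 in the mutants, Atp6v1b2 to 0.16, 0.20, 0.13 and, in KO_ERRg_wt, 0.06, Atp6v1e1 to 0.58 (KO_ERRb_DBDm6) and 0.55 (KO_ERRb_AF2M6), Lamp1 to 0.28 (KO_ERRb_DBDm6), 0.19 (KO_ERRb_AF2M6) and 0.27 (KO_ERRg_wt) and Atp6v0d1 to 0.26 (KO_ERRb_AF2M6). Against WT_mock, Atp6v1f turned to 0.03, 0.12 and 0.02 and Atp6v1e1 to 0.31, 0.42 and 0.39 in the mutants, Lamp1 to 0.27 (KO_ERRb_DBDm6), 0.17 (KO_ERRb_AF2M6) and 0.25 (KO_ERRg_wt), Atp6v1b2 to 0.02 (KO_ERRb_DBDm6), Atp6v0d1 to 0.18 (KO_ERRb_DBDm6), 0.13 (KO_ERRb_AF2M6) and 0.13 (KO_ERRg_wt), Man2b1 to 0.02 (KO_ERRb_AF2M6) and Mcoln1 to 0.05 (KO_ERRg_wt).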
